A study of Homo sapiens with 9 samples.

Results

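Of the 2261 DHX34 binding peaks on the human genome, 339 (15%, 95% Wilson interval 13.6 to 16.5) overlapped no protein-coding gene by even 1 nt in GENCODE release 44 on GRCh38, and these are the peaks described here. They comprised 119 peaks in long noncoding RNA (lncRNA) genes, 20 in pseudogenes, 1 in the immunoglobulin variable segment IGHV2-26, and 199 in no annotated gene. A peak that overlapped several kinds of gene was counted as lncRNA first and pseudogene next. The last class included 4 peaks on unplaced or unlocalised scaffolds, for which no gene annotation was used here.

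DHX34 binding sites were mapped by seCLIP, in which RNA crosslinked to a protein by UV light is immunoprecipitated with it and sequenced from 1 end. The 5 tagged libraries came from a single HEK293T clone, A5, with a GFP-FLAG tag on the endogenous DHX34 gene, and were pulled down with anti-GFP beads. HEK293T is a human embryonic kidney line. The 4 control libraries, which their titles call inputs, came from HEK293T cells without the tag, and cells of both groups were UV-crosslinked. The list gives 1 set of peaks for all tagged libraries, each with its coordinates and an integer (1 to 4) that is not explained. It holds no strand, no read count and no value per library, so the depth behind each peak is unknown and no spread between replicates could be computed. The authors kept a smaller set after a filter on reads, and the list does not mark that set. Each p-value below treats peaks as units and covers counting over peaks only, since all peaks come from the same libraries.

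DHX34 is an RNA helicase that acts in nonsense-mediated mRNA decay. lncRNA genes are transcribed, and often spliced, into RNAs without a known protein product, and many start next to a protein-coding gene on the other strand. Pseudogenes are copies of genes, or former genes, that have lost their coding function, although some are still transcribed. RNA polymerase also runs past the 3′ end of most genes before it is released and starts upstream of many promoters, so that RNA is made outside annotated genes as well.

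The 8 peaks with a fourth-column value of 2, the highest among the 339, are printed first. In each sequence the capitals mark copies of 3 G-rich 6-mers on either strand, and overlapping copies run together. The first is GGAGGG, whose reverse complement reads CCCTCC. Another is GGGGAG, whose reverse complement reads CTCCCC. The last is GAGGAG, whose reverse complement reads CTCCTC. A peak in an lncRNA gene or pseudogene is printed on the strand of that gene, and a peak in no gene on the plus strand, under the name of the nearest protein-coding gene or of its scaffold.
MAP10, chr1:232789816-232789919, plus strand: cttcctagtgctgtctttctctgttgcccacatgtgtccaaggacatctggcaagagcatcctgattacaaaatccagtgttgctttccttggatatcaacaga
ZFAND4, chr10:45607902-45608005, plus strand: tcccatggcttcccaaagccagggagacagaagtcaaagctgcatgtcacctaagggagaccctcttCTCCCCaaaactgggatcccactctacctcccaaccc
EIF1AD, chr11:65993054-65993190, plus strand: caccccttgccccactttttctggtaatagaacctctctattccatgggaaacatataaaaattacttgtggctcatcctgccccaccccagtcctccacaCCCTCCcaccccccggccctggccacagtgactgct
PLEKHD1, chr14:69484522-69484626, plus strand: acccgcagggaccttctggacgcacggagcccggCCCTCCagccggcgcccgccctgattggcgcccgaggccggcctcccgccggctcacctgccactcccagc
STARD7-AS1, chr2:96239213-96239319, plus strand: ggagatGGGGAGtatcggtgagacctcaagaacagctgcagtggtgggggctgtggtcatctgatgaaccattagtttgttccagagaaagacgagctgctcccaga
CAMK2D, chr4:113762321-113762549, plus strand: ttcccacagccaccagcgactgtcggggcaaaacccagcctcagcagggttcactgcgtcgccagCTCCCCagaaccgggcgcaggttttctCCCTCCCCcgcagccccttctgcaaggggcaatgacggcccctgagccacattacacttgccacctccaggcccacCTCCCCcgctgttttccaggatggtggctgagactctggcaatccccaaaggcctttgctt
H2BC13, chr6:27676653-27676758, plus strand: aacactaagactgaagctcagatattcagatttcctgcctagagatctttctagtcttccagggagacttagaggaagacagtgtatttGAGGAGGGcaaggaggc
KI270733.1, KI270733.1:175097-175196, plus strand: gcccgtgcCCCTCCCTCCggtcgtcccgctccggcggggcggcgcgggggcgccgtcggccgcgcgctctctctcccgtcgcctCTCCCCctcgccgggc

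Among those of the 8 peaks that lay on chromosomes, only the STARD7-AS1 peak was in a noncoding gene, in intron 1 of its 3-exon canonical transcript. The peak near PLEKHD1 was 65 nt upstream of that gene and that near CAMK2D, a calcium-dependent kinase gene, was 393 nt upstream. The peaks near EIF1AD and ZFAND4 lay 3354 and 7494 nt beyond the 3′ ends of those genes. The peak near MAP10 lay 15496 nt upstream of it, and the peak near the histone gene H2BC13 lay 130720 nt beyond its 3′ end. The remaining peak was on scaffold KI270733.1, for which no gene annotation was used.

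The following peaks were among those with the most copies of the 6-mers in each class, where ties were taken by chromosome and start.
ENSG00000217801, chr1:1069027-1069146, plus strand: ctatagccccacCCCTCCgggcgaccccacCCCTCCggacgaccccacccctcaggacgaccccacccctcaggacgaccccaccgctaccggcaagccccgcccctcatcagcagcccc
ENSG00000270087, chr10:75395591-75395692, minus strand: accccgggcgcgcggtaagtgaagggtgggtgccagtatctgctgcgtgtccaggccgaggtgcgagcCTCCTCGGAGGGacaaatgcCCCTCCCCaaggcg
TESC-AS1, chr12:117111580-117111680, plus strand: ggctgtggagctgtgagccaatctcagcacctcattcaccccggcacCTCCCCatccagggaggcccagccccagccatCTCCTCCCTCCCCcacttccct
BOK, chr2:241576243-241576343, plus strand: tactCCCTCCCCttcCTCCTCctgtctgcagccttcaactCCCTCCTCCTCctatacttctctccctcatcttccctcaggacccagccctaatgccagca
UBE3C, chr7:157299904-157300007, plus strand: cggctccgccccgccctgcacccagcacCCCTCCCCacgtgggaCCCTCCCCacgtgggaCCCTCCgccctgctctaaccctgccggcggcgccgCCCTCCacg

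The UBE3C and BOK peaks each held 6 copies. The UBE3C peak lay 30533 nt beyond the 3′ end of that gene and the BOK peak 2111 nt beyond the 3′ end of its own. ENSG00000270087 and TESC-AS1, both lncRNA genes, held 4 copies each, in intron 1 and intron 2 of their canonical transcripts, and the peak in the lncRNA gene RENO1, not printed, also held 4. The peak in the pseudogene ENSG00000217801 held 2, as did those in ENSG00000256673 and ATP6AP1L, which are not printed.

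Across all 339 peaks, 126 (37.2%, 32.2 to 42.4) held at least 1 of the 6-mers on either strand. Windows of the same width 500 nt away on the left and right held one in 26.5% and 23.6%. Peaks in protein-coding genes held one in 42.5% (816 of 1922), with 27.2% and 25.9% in their flanking windows. The 6-mers were chosen with earlier results of these data known, so the higher shares in peaks than in flanking windows are a description and show no enrichment. The difference between peaks outside and inside protein-coding genes did not pass the test (odds ratio 0.802, two-sided Fisher exact test, p = 0.0731, adjusted p = 0.125 by Benjamini-Hochberg over 12 tests). The share was 35.3% (42 of 119) in lncRNA genes and 38.2% (76 of 199) in no gene, which also did not pass (Fisher exact test, adjusted p = 0.759).

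Peaks outside protein-coding genes were less often wide. Their widths ran from 100 to 490 nt with a median of 103 nt, the same median as inside protein-coding genes, where the widest peak had 1057 nt. Of the 339 peaks, 43 (12.7%) were wider than 110 nt, against 448 of 1922 (23.3%) inside protein-coding genes (odds ratio 0.478, Fisher exact test, adjusted p = 4.63e-05). With a limit of 150 nt the shares were 2.65% and 8.69%, with an odds ratio of 0.287 (Fisher exact test, adjusted p = 2.22e-04, range over its alternatives 2.17e-05 to 2.22e-04). By class, the share of wide peaks was 9.24% in lncRNA genes, 12.6% in no gene and 35% (7 of 20, 18.1 to 56.7) in pseudogenes. The widest, with 490 nt, overlapped exon 1 of the lncRNA gene ENSG00000286957 and began upstream of the gene.

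GC content and the fourth column gave no difference that passed the test. GC ranged from 19% to 85.0% with a median of 49.5%, against medians of 45.5% and 45.6% in the flanking windows. A GC content of 50% or more was found in 165 of 339 peaks (48.7%) and in 1008 of 1922 (52.4%) inside protein-coding genes (adjusted p = 0.324 by Fisher exact test). A value of 2 or more was found in 8 of 339 (2.36%) and 44 of 1922 (2.29%), respectively (odds ratio 1.03, Fisher exact test, adjusted p = 0.864). This comparison moved with width, and among peaks of at most 110 nt the shares were 2.03% (6 of 296) and 0.678% (10 of 1474), with an odds ratio of 3.03 (Fisher exact test, p = 0.0376, adjusted p = 0.0645, range over its alternatives 0.0645 to 1.00). Values of 3 and 4 were held by 4 peaks and 1 peak of the list, all inside protein-coding genes.

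**Figure D1:**
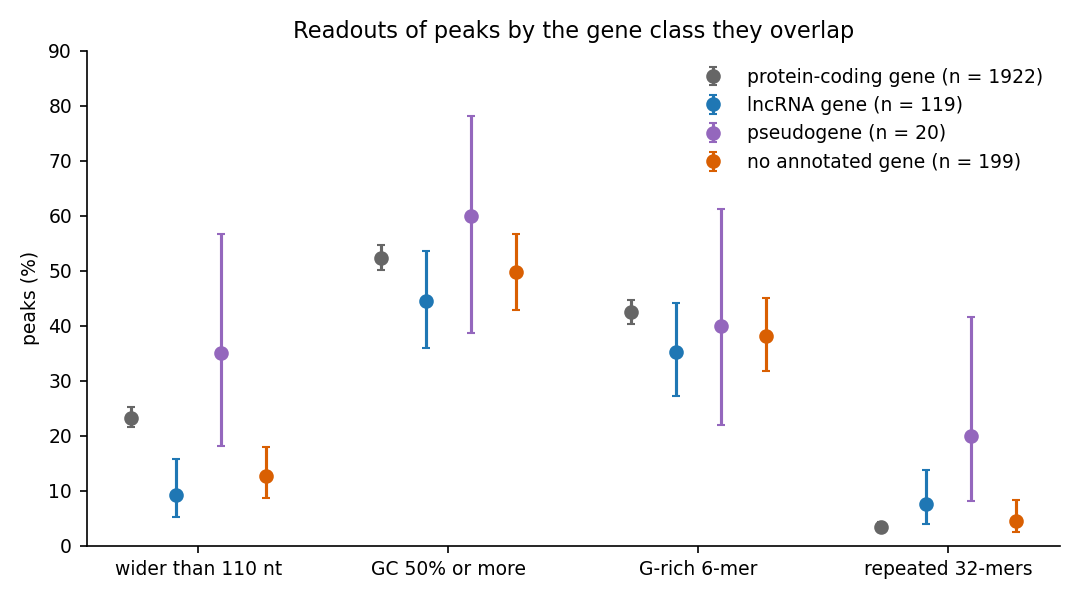
Share of peaks (%) with 4 properties, by the class of gene the peak overlapped, where points are shares and bars are 95% Wilson intervals over peaks. Wide peaks made up 23.3% inside protein-coding genes, 9.24% in lncRNA genes and 12.6% in no gene, while the intervals of the 20 pseudogene peaks are broad.

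The plot of these shares by class also shows sequence that recurs in the genome. For each peak, every stretch of 32 nt was looked up in the GRCh38 sequence without alternative loci, on both strands, and a peak was counted when 10% or more of them occurred more than once. This held for 23 of 339 peaks (6.78%) and for 66 of 1922 (3.43%) inside protein-coding genes (odds ratio 2.05, Fisher exact test, adjusted p = 0.0154). The call did not hold without the scaffold peaks or without wide peaks. Without the 4 scaffold peaks the shares were 5.67% and 3.43% (odds ratio 1.69, Fisher exact test, adjusted p = 0.121), and among peaks of at most 110 nt the odds ratio was 1.81 (adjusted p = 0.0857), with adjusted p from 0.0154 to 0.121 over all alternatives.

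All 4 scaffold peaks were in this group. The peak at KI270733.1:162820-162920 had all of its 70 stretches repeated, with up to 19 copies. The other peak on that scaffold had 53.6% repeated, with copies in 4 windows of 1 kb that RefSeq assigns to 45S ribosomal RNA precursor genes. The peak at GL000194.1:95223-95326 had 49.3% repeated and that at KI270442.1:234651-234789 had 30.6%. Peaks on chromosomes held such sequence too. The peak at chr20:29300847-29300960 had 39.8% repeated, with copies in 3 windows assigned to 45S genes. That at chr1:205647967-205648068 had 40.8% repeated, with up to 17692 copies. The peak in CD99P1 had all 72 stretches on both X and Y, where this locus lies in the region that the sex chromosomes share.

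Peaks in lncRNA genes were spread over many genes. The 119 peaks were assigned to 113 genes, of which 109 had 1 peak, 3 had 2 and 1 had 4. By name, 51 of the 113 genes carried only an Ensembl accession, 19 were LINC genes, 16 were named as antisense and 14 as divergent transcripts of a protein-coding gene, 5 were host genes and 8 had another symbol. The 113 genes had a median length of 66310 nt, against 6279 nt for all 18866 annotated lncRNA genes. Counting every gene a peak touched, 125 lncRNA genes (0.663%) overlapped a peak outside protein-coding genes.

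MIR924HG, the host gene of a microRNA, had 4 peaks, the most of any lncRNA gene. All 4 lay in intron 2 of its 5-exon canonical transcript, between chr18:39672473 and chr18:39734509, at 65.8, 71.2, 97.5 and 128 kb from the 5′ end of a gene of 593 kb. The peak 65.8 kb from the start was 336 nt wide and held 3 of the G-rich 6-mers, the other 3 were 103 to 105 nt wide, and the GC content of the 4 ran from 32% to 41.0%. LINC01572, a gene of 429 kb, had 2 peaks in intron 6 of 14 exons. LINC01619 had 1 peak in intron 1 of its canonical transcript and 1 that touched an exon of another transcript. ENSG00000234147 had 2 peaks in intron 1 with GC contents of 19% and 31.4%, of which the former was the lowest among the 339.

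**Figure D2:**
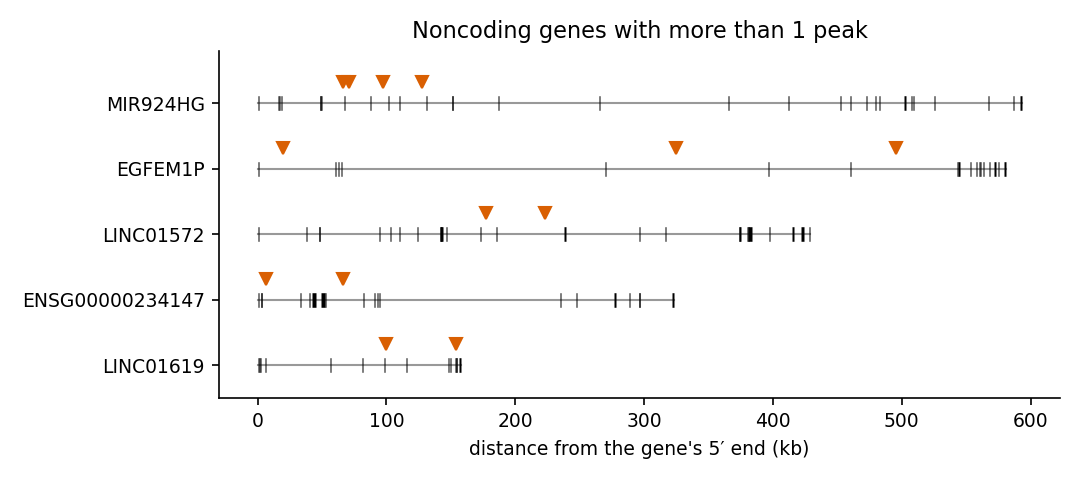
Noncoding genes with more than 1 peak, drawn from the 5′ end (distance in kb), with exons of all transcripts as black bars, widened where too narrow to see, and peaks as orange triangles. The 4 MIR924HG peaks lie between 65.8 and 128 kb from its 5′ end, and the 3 peaks of the pseudogene EGFEM1P between 19.4 and 495 kb.

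In the plot of genes with more than 1 peak, the LINC01619 peak that touched an exon lies 154 kb from the start of the gene. Among 78 annotated genes of 4 lists of well-known lncRNAs, 9 (11.5%) overlapped one of the 339 peaks, against 0.663% of all lncRNA genes. The lists were drawn up with earlier results of these data known, so these shares are a description and show no enrichment. Of 16 nuclear and X-inactivation lncRNAs, 2 had a peak. HOTAIR, transcribed from the HOXC cluster, had a peak in its last exon, exon 7 of 7, at chr12:53962670-53962773, with a GC content of 36.5%. FIRRE, a nuclear RNA from the X chromosome, had a peak of 416 nt in intron 11 of 12 exons at chrX:131734616-131735031. No peak of the list fell on the other 14, which include MALAT1 and NEAT1, although without read counts a lack of a peak does not show a lack of binding.

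Of 22 snoRNA host genes, 2 had a peak. The SNHG11 peak at chr20:38449465-38449565 also overlapped the small nucleolar RNA SNORA60, lay in intron 4 of the canonical transcript and crossed an exon boundary of another transcript. The DANCR peak at chr4:52712698-52712800, with a GC content of 80.6%, also overlapped the microRNA gene MIR4449 and the lncRNA genes LINC01618 and ENSG00000286161. SNHG5 had a peak that also overlapped a protein-coding gene and was therefore not counted. One further peak, in ENSG00000292256, overlapped the vault RNA gene VTRNA1-2.

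Of 20 microRNA host genes, 4 had a peak. Besides MIR924HG these were MIR34AHG, host of a microRNA induced by p53, MIR222HG with a peak in intron 1, and DLEU2 with a peak in intron 1 that also overlapped DLEU1 on the opposite strand, where it touched an exon. Of the other 20 well-known lncRNAs, NUTM2A-AS1 had a peak in intron 5 of 6 exons, with 25.7% of its 32-nt stretches repeated. The part of gene length in these counts was not tested.

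Most peaks in lncRNA genes lay in introns. Of the 117 peaks that lay wholly within an lncRNA gene, 23 (19.7%) overlapped an exon of any transcript of that gene, against 563 of 1915 (29.4%) wholly within a protein-coding gene (odds ratio 0.588, Fisher exact test, p = 0.0268, adjusted p = 0.0536). The adjusted p did not pass 0.05 and it passed when only canonical transcripts were used (12.8% against 24.0%, odds ratio 0.465, Fisher exact test, adjusted p = 0.0129), with adjusted p from 0.0129 to 0.351 over its alternatives. As a description, of all positions where a peak of the same width would fit in the same genes, 16.2% touched an exon in the lncRNA genes and 16.1% in the protein-coding genes.

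Exon-intron boundaries were crossed less often in lncRNA genes. In all, 3 of 117 peaks (2.56%) crossed a boundary, those in LINC01787, ENSG00000286369 and SNHG11, against 307 of 1915 (16.0%) in protein-coding genes (odds ratio 0.138, Fisher exact test, adjusted p = 4.63e-05). Among peaks of at most 110 nt the shares were 2.78% and 10.3%, with an odds ratio of 0.250 (Fisher exact test, adjusted p = 0.0164, range over its alternatives 3.63e-05 to 0.0164). Of all positions in the same genes, 2.78% crossed a boundary in the lncRNA genes and 6.77% in the protein-coding genes, so the observed share was close to that of all positions in the former and above it in the latter. The lncRNA genes had fewer boundaries, with a median of 0.144 per kb against 0.367 per kb. Of the peaks that overlapped an exon, 3 of 23 (13.0%, 4.54 to 32.1) crossed a boundary in lncRNA genes and 307 of 563 (54.5%, 50.4 to 58.6) in protein-coding genes.

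**Figure D3:**
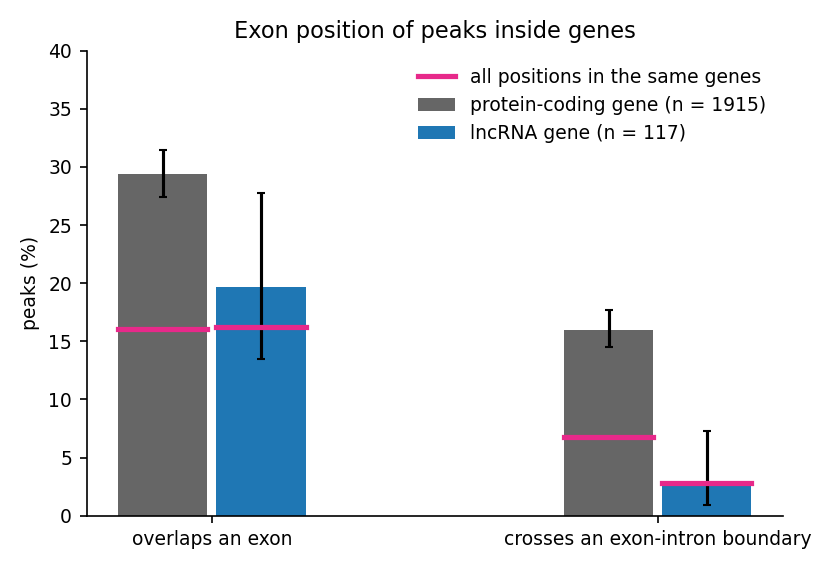
Share of peaks (%) that overlapped an exon or crossed an exon-intron boundary, for peaks wholly within protein-coding genes and lncRNA genes, with bars from 0, 95% Wilson intervals in black and the share of all positions in the same genes in pink. In lncRNA genes the boundary share of 2.56% sits near the 2.78% of all positions, and in protein-coding genes 16.0% sits above 6.77%.

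The plot of exon positions sets these shares side by side. The LINC01787 peak at chr1:96355220-96355322 spanned exon 2 of 6 and reached into introns 1 and 2. The ENSG00000286369 peak at chr11:68282715-68282820 spanned the junction of intron 1 with exon 2 of 3. Among the other peaks in exons, those of HK2-DT, MAN1B1-DT and HIF1A-AS3, singled out after their positions were seen, overlapped a RefSeq promoter window around an annotated gene start.

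The 20 peaks counted as pseudogene peaks lay in 18 pseudogenes, and 12 of the 20 were in types annotated as transcribed. Peaks over both a pseudogene and an lncRNA gene were counted as lncRNA peaks and are not among the 20. Such peaks touched exons of RPL13AP3, PCBP2P2 and ENSG00000215835. Others lay outside the exons of KIF28P, LRP5L, MCF2L2P1, ENSG00000257489, ENSG00000234500, ENSG00000228327 and ENSG00000230021. EGFEM1P, a former gene of 581 kb, had 3, in introns 1, 4 and 6 of 12 exons and with GC contents from 42.9% to 44.2%. An exon was overlapped by 10 of the 20, and 2 of these, in ZNF37BP and CEACAMP5, crossed an exon-intron boundary. FER1L4, a unitary pseudogene, had a peak in exon 35 of 45, and C10orf88B had one in exon 6 of 6. The peaks of the processed pseudogenes RAD21P1, ENSG00000259397 and ENSG00000260290 and of the immunoglobulin pseudogene IGHVIII-5-2 lay in their single exons. The peak of the immunoglobulin pseudogene IGLV3-2 overlapped its single exon and ran past the end of the gene. ENSG00000286215 also had its peak in an exon.

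The other pseudogene peaks touched no exon. They lay in SMPD4BP (intron 10 of 19 exons), PRODHLP (intron 1 of 10), ENSG00000217801 (intron 9 of 10), ENSG00000256673 (intron 1 of 4), H1-9P, ATP6AP1L and ENSG00000249259, besides EGFEM1P. The ENSG00000256673 peak was the widest in a pseudogene, with 344 nt.

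For 4 of the 20, 10% or more of the sequence recurred, and copies were identified at parent genes in 3. The ENSG00000260290 peak, 309 nt wide, shared 66 of 278 stretches of 32 nt with NONO, a gene for a nuclear RNA-binding protein on X. The SMPD4BP peak shared 23 of 73 with SMPD4, and the RAD21P1 peak shared 15 of 81 with the locus of the cohesin gene RAD21. In the ENSG00000259397 peak 12 of 81 recurred, with copies at ENSG00000275895 on chromosome 21 among other places, and its parent gene was not identified. Among the peaks over pseudogenes that were counted as lncRNA peaks, those over RPL13AP3, PCBP2P2, MCF2L2P1 and ENSG00000230021 also had 10% or more repeated. A read that lies wholly within such a stretch matches each copy equally, while a longer read can reach bases that differ between copies. Which of these held for the reads behind these peaks is unknown.

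Peaks in no annotated gene were often close to a protein-coding gene. Of the 195 on chromosomes, 31 (15.9%) lay within 1 kb of a protein-coding gene, 85 (43.6%) within 10 kb and 151 (77.4%) within 100 kb, whereas of all bases outside genes 1.93% lay within 1 kb and 13.8% within 10 kb. Their median distance was 17409 nt, with quartiles of 3329 and 78209 nt and a maximum of 1981874 nt. Of the 119 peaks in lncRNA genes, 31 (26.1%) lay within 10 kb, a smaller share (odds ratio 0.456, Fisher exact test, adjusted p = 0.00711), and their median distance was 66890 nt. The share of all positions in these lncRNA genes within 10 kb is not given, and the part of their location in this difference was not tested. The median for pseudogene peaks was 20009 nt.

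**Figure D4:**
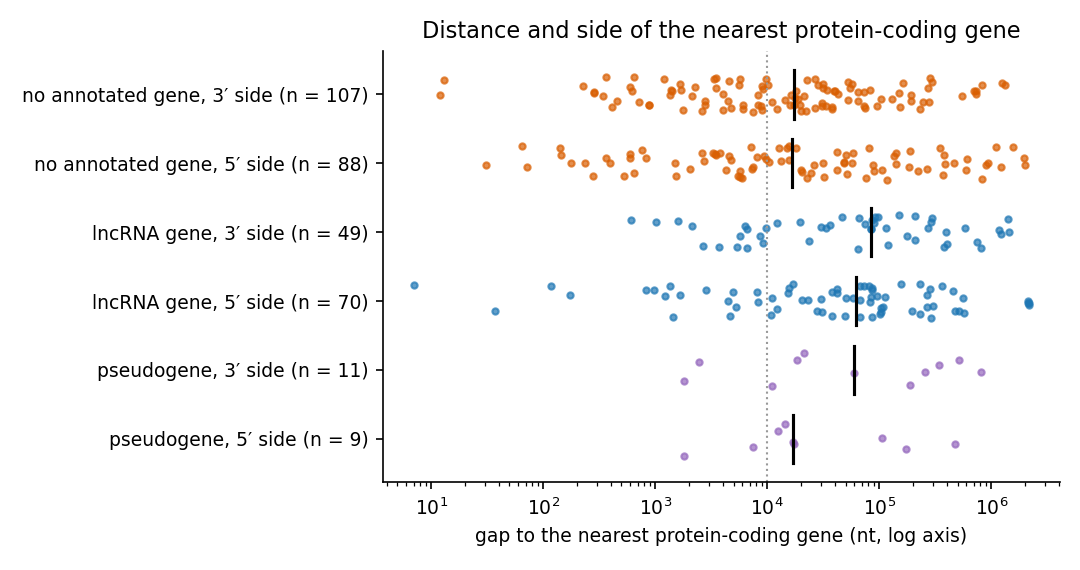
Gap from each peak outside protein-coding genes to the nearest one (nt, log axis), by class and by the side of that gene, where each point is 1 peak, black lines are medians, vertical scatter is arbitrary and the dotted line marks 10 kb. Peaks in no gene reach within 12 nt on the 3′ side and 31 nt on the 5′ side, and 43.6% of them lie left of the dotted line.

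The plot of gaps by side shows both sides occupied. Of the 85 peaks in no gene within 10 kb, 47 lay on the 3′ side and 38 on the 5′ side (3′ share 55.3%, 44.7 to 65.4), while 49.0% of the bases outside genes at this distance lay on the 3′ side. Within 1 kb the counts were 15 and 16. The nearest protein-coding gene itself held a peak in 9 of the 85 cases (10.6%, 5.67 to 18.9), against 8.64% of all 20046 protein-coding genes.

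On the 3′ side, the nearest were WBP2 at 12 nt, PARP10 at 13 nt, NOL4L at 225 nt, NEURL1 and SLCO4A1 at 284 nt each, SPCS2 at 339 nt, B4GALT7 at 366 nt, KLHL9 at 413 nt, EHD1 at 455 nt and TTC4 at 597 nt. SPCS2, a signal peptidase subunit, was the only gene nearest to 2 peaks within 10 kb, and they lay 1830 nt apart. Of these 10 genes, NEURL1 also held a peak.

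On the 5′ side, the nearest were SMIM32 at 31 nt, PLEKHD1 at 65 nt, TMBIM4 at 71 nt, ABCB10 at 141 nt, ALKAL1 at 144 nt, WWC3 at 178 nt, SCUBE2 at 237 nt, KDM2A at 280 nt, QRICH2 at 365 nt and CAMK2D at 393 nt. Peaks at KDM2A, a histone demethylase gene, and WWC3 had GC contents of 80.4% and 80.0%, and those at TMBIM4 and QRICH2 had 48.0% and 45.2%. RefSeq promoter windows were overlapped by the peaks near SMIM32, PLEKHD1, ABCB10 and WWC3 and by 4 peaks in lncRNA genes, 8 peaks in all, with GC contents from 59.4% to 80.0%. No share for peaks in protein-coding genes or for all positions is given beside this count, so it shows neither an excess nor a lack.

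For peaks in lncRNA genes, the annotated strand of the lncRNA gene was set against that of the nearest protein-coding gene, which does not place the peak itself on a strand. Of the 31 within 10 kb, 16 lay on its 5′ side in an lncRNA gene of the opposite strand, 12 on its 3′ side in one of the opposite strand, 2 on its 3′ side in one of the same strand and 1 on its 5′ side in one of the same strand. Over all distances these counts were 49, 27, 22 and 21. The orientation of all annotated lncRNA genes was not computed for comparison.

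Since the list gives no strand, G near the upstream edge of peaks was used to compare strands. In peaks within protein-coding genes read on the strand of the gene, positions 6 to 15 held 37.6% G. On the opposite strand, positions 6 to 15 from its own upstream edge, which is the other end of the peak, held 23.3%. All strand comparisons of G here set the ends of a peak against each other, not both strands of the same bases. G was higher on the strand of the gene in 1242 of the 1656 peaks with unequal counts (75.0%). This excess was known from these data before and serves as the reference. The first 30 nt of the 5 nearest peaks on the 3′ side, leaving out PARP10, are printed on the strand of the gene to show the measured stretch, positions 6 to 15, in capitals.
WBP2, chr17:75845657-75845686, minus strand: ctgcgTGTGGTGACCcgggggtctcttccg
NOL4L, chr20:32442804-32442833, minus strand: ccttcAGTTGCTGAGcacaggcagaactct
NEURL1, chr10:103592831-103592860, plus strand: gggtgTGGTGGGGAAggtgccctgggatgg
SLCO4A1, chr20:62686070-62686099, plus strand: gcgtcCATTCCTGTTtatcgcggccacttc
SPCS2, chr11:74979373-74979402, plus strand: tgcaaAGGCAGGGGAccaattgcaacaagt

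The capitals hold 4, 4, 6, 1 and 6 G, and on the opposite strand the corresponding positions held 2, 2, 4, 1 and 2, so that 4 of the 5 peaks had more G on the strand of the gene and 1 had an equal count. Over all 47 peaks in no gene within 10 kb on the 3′ side, G was higher on the strand of the neighbouring gene in 29 of 40 with unequal counts (72.5%, 57.2 to 83.9, two-sided exact binomial test, p = 0.00643, adjusted p = 0.0154). The mean share of G was 34.3% on that strand and 23% on the other. Within 1 kb the counts were 12 of 13 (92.3%, 66.7 to 98.6), within 5 kb 23 of 28 (82.1%) and beyond 10 kb 35 of 51 (68.6%). The adjusted p was 0.0576 with peaks of at most 110 nt (69.4%) and 0.0601 when lncRNA and pseudogene peaks were added (65.5%), and ran from 0.00365 to 0.0601 over all alternatives.

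On the 5′ side within 10 kb, G was higher on the strand of the neighbouring gene in 16 of 34 peaks (47.1%, 31.5 to 63.3, exact binomial test, adjusted p = 0.864), and the shares of G were 32.9% and 31.6%. Within 1 kb the counts were 7 of 12 (58.3%), within 5 kb 13 of 24 (54.2%) and beyond 10 kb 24 of 41 (58.5%). The difference between the sides within 10 kb, a comparison chosen after these values were seen, had an odds ratio of 2.97 (Fisher exact test, p = 0.0328, adjusted p = 0.0328 over the 2 comparisons so chosen). Of these distances, 10 kb was the limit with the lowest 5′ share.

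In lncRNA genes, G was higher on the strand of the lncRNA gene in 56 of 103 peaks (54.4%, 44.8 to 63.7, exact binomial test, p = 0.431, adjusted p = 0.574), with shares of 31.9% and 26.8%. With positions 1 to 20 it was higher in 68 of 112 (60.7%, exact binomial test, p = 0.0293, adjusted p = 0.0502), and adjusted p ran from 0.0502 to 0.818 over all alternatives. Among peaks that overlapped genes of 1 strand only, it was higher in 47 of 91 (51.6%). The share of 54.4% was below that in protein-coding genes (odds ratio 0.397, Fisher exact test, adjusted p = 2.75e-05, also chosen after the values were seen). Among peaks that overlapped an exon of the lncRNA gene, G was higher on its strand in 12 of 19 (63.2%, 41.0 to 80.9). Read instead on the strand of a protein-coding gene within 10 kb, lncRNA peaks had more G on that strand in 6 and less in 7 on its 3′ side, and in 8 and 8 on its 5′ side.

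**Figure D5:**
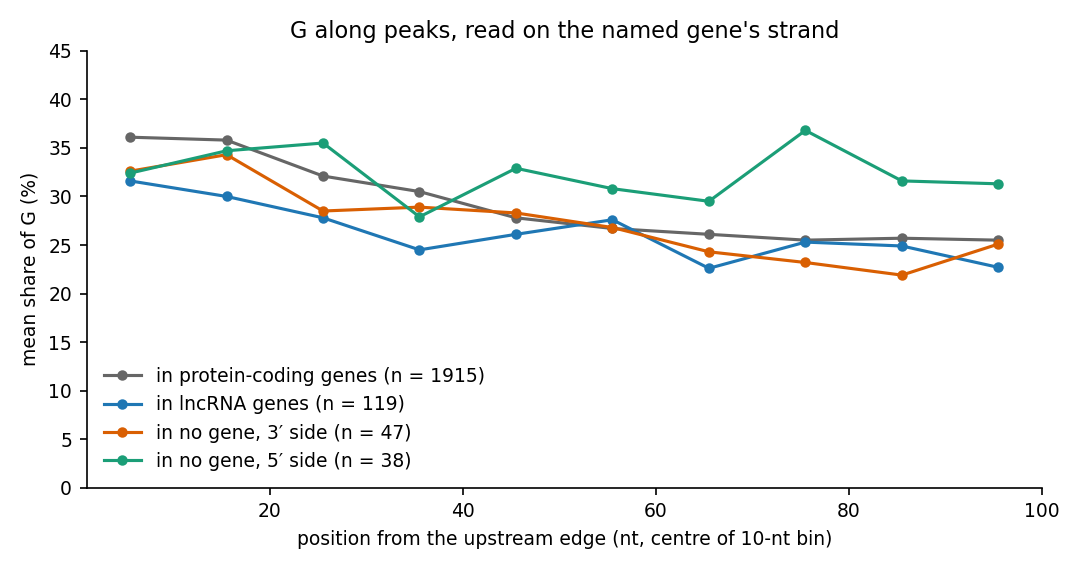
Mean share of G (%) in bins of 10 nt from the upstream edge of peaks, read on the strand of the gene they lie in or, for peaks in no gene within 10 kb, of the nearest protein-coding gene, without error bars. From the first to the last bin the values were 36.1% and 25.5% in protein-coding genes, 32.6% and 25.1% on the 3′ side, and 32.4% and 31.3% on the 5′ side.

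The profile of G along peaks extends these values over the first 100 nt. In lncRNA genes the first bin held 31.6% G and the last 22.7%. The lines of the no-gene peaks rest on 47 and 38 peaks.

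By chromosome, the number of peaks outside protein-coding genes ran from 4 on chromosome 21 to 28 on chromosome 1, and their share of all peaks on a chromosome was lowest on chromosome 19, at 5.81%. Per 100 Mb, chromosome 7 had 5.65 and chromosome 17 had 21.6. Few lay close together, with 4 pairs within 10 kb of each other, near ELK4, SPCS2 and NDUFA10 and in MIR924HG.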

How the data were processed

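The authors' seCLIP files hold 9 libraries, 5 tagged and 4 untagged. Per the study's methods, the authors trimmed adapters (cutadapt), used molecular identifiers (UMI-tools), aligned to GRCh38 (bowtie2), kept uniquely placed reads, removed reads in transposable elements and called peaks with MACS2 against merged controls. Reads in repeated sequence can be lost in these steps, but repeated sequence remained in some peaks. For further study the authors then kept only peaks with enough reads and a high ratio of peak reads to reads in the surrounding region. A minority of the peaks they kept had such read support in more than a single replicate. The list of 2261 peaks used here is longer than that selection and does not mark it. Read length and sequencer are given differently in labels and methods and are left out. The deposited score in the fourth column is a whole number with no stated meaning, and 0 value columns were left unmapped. Groups came from the sample titles.

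Here, peaks were set against GENCODE release 44, with any overlap of 1 nt counting and starts counted from 1. Gaps ran to the nearest protein-coding gene. Exons came from all transcripts of 1 gene per peak, and exon and intron numbers from the canonical transcript. Promoter windows and 45S genes were from RefSeq. Fisher exact and exact binomial tests, two-sided, were adjusted by Benjamini-Hochberg over 12 tests, with a threshold of 0.05 and 95% Wilson intervals (Python 3.11.15, scipy 1.17.1, statsmodels 0.14.6, pysam 0.24.0). The k-mer search, the nearest-gene search and the Fisher tests were tested on simulated data. Members, lists, motifs and tests were chosen with earlier results of these data known. Named were genes with a value of 2 or more, with 2 or more peaks, on the lists, crossed at a boundary, every pseudogene, the 10 nearest protein-coding genes on each side and all scaffold peaks. Alternatives covered peak width, scaffolds, distance, transcripts, strand overlap, edge positions and thresholds.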

Additional observations from a re-analysis of the deposited data

How the results depend on the processing

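Of the 71 alternatives over 14 results, 63 kept the direction and the side of the threshold, and 2 alternatives added after seeing the data, which counted exons of any overlapped gene of the class, did so too. With scaffold peaks left out, the odds ratio for a fourth-column value of 2 or more was 0.911 (Fisher exact test, adjusted p = 1.00) and that for repeated stretches 1.69. With peaks of at most 110 nt, the odds ratio for a fourth-column value of 2 or more was 3.03, that for boundary crossing 0.250 and that for repeated stretches 1.81, and the 3′-side G share was 69.4%. That share was 65.5% with all peaks outside protein-coding genes. With canonical transcripts the odds ratio for exon overlap was 0.465. The 5′-side G share was 54.2% with a limit of 5 kb and 55.9% with positions 1 to 20, with adjusted p of 0.846 and 0.690 and a range of 0.690 to 1.00 over its alternatives. Apart from the removal of peaks itself, the cause was not tested.

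No paired analysis was possible because the list gives no value per library, although titles of both groups share replicate numbers, and leaving out a replicate was not possible. The depth behind each peak is unknown, so a gene without a peak cannot be read as unbound, and the strand of a peak in no gene was not measured.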
